A study of Mus musculus with 8 samples.

Results

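Peroxisomes are small membrane-bound organelles that shorten very-long-chain and branched fatty acids, destroy hydrogen peroxide and begin the synthesis of ether lipids such as plasmalogens, which are abundant in myelin. The 31 genes described here encode 13 peroxins, which build the organelle, and 18 transporters and enzymes, most of which handle lipids inside it. They were chosen by symbol and matched to a RefSeq gene table, which held all 31 among 21887 protein-coding genes on chromosomes 1 to 19, X and Y. A gene counted as bound in a library when the centre of a peak lay in its span or within 5000 bp of it. The remaining 21856 protein-coding genes served as the background.

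Occupancy of these genes was read from chromatin immunoprecipitation with sequencing (ChIP-seq) in oligodendrocytes, the cells that make myelin in the brain. One kind of cell, called differentiated here, was grown out of neural stem cells of the strain FvB/C57BL6 hybrid at passage 7, with IGF1 at 100 ng/mL and T3 at 50 ng/mL. All 5 differentiated-cell libraries, input included, came from cells with ectopic, HA-tagged PPARb, so no library shows these cells without it. Antibodies there were raised to RNA polymerase II (Pol II), the HA tag, PPARb and Qki-5. The isolated cells were taken from C57BL6 brain with O4 beads at passage 0, and were profiled with the Qki-5 and PPARb antibodies beside an input of their own. Each of the 8 groups had 1 library. No difference could therefore be set against a spread between replicates, and the intervals given cover counting error only. Strain, culture, passage and introduced PPARb all differ between the 2 kinds of cell and cannot be told apart.

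PPARb, also called PPAR delta, is a nuclear receptor that binds lipids and pairs with an RXR receptor on DNA, where the classical element is a direct repeat of AGGTCA. Genes of peroxisomal fatty acid oxidation are among the best known targets of the PPAR family in rodent liver. Qki-5 is the nuclear form of Quaking, an RNA-binding protein needed for myelination. The HA antibody sees only the introduced, tagged receptor, whereas the PPARb antibody can see the cell's own receptor as well.

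The 6 antibody libraries held between 12624236 and 24880851 tags and gave between 1391 and 30175 peaks on the chromosomes used. The height of a peak is the authors' normalised tag count, scaled to 10000000 tags per library. A median peak held between 14 and 22 tags, so single heights are imprecise. Tags in peaks made up 4.62% of the HA library but 0.117% of the isolated-cell PPARb library, although the latter held more tags (18389111). A missing peak in the isolated-cell PPARb library thus means only that none was detectable there. As a check on the cell labels, 3 of 9 oligodendrocyte marker genes had a Qki-5 peak in differentiated cells, against 8 of 9 in isolated cells. The background shares for Qki-5 were 61.1% and 35.7%. Mag and Mobp, which encode myelin proteins, were bound by Qki-5 in isolated cells and had no peak in any of the 4 differentiated-cell lists, and Mog had none in any list. All 3 astrocyte and all 3 neuron markers carried Qki-5, PPARb and HA peaks in differentiated cells, whereas isolated cells had no peak at any of them. Most background genes also carried these peaks in differentiated cells (61.1, 57.2 and 60.6%). In isolated cells PPARb marked 7.56% of the background. Of 4 microglia markers, 0 had a Qki-5 peak in either kind of cell, 1 had PPARb and HA peaks in differentiated cells and 1 a PPARb peak in isolated cells. Of 3 endothelial markers, Qki-5 marked 2 in differentiated and 3 in isolated cells, PPARb 1 and 0, and HA 1. Peaks report occupancy and not RNA, and the part of other cell types in the results was not tested.

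Promoter sequence was given by RefSeq (GRCm38.p6, the same build as mm10) for 26 of the 31 genes, as 300 bases running from 250 before to 50 after the start. The genes with no entry were Pex19, Pex2, Abcd2, Hsd17b4 and Amacr. The first 6 sequences are those whose window overlapped a PPARb peak of differentiated cells, taken by the height of that peak. Of these 6, 5 contain a GC box (the exception is Pex3) and none contains AGGTCA. Among other protein-coding genes with a peak, 65.8% held the GC box, and 18.1% of other genes in the promoter table held AGGTCA. Members whose PPARb peaks missed the window, such as Pex16 (19.1), Scp2 (18.2) and Cat (16.9), were left out by this rule. The windows of Scp2 and Cat do hold AGGTCA. Capitals mark the GC box GGGCGG, or CCGCCC where it lies on the other strand. Acox3 lies at chr5:35582784-35583083 (plus strand), Ech1 at chr7:28825088-28825387 (plus), Pex14 at chr4:149099794-149100093 (minus), Pex3 at chr10:13553093-13553392 (minus), Pex5 at chr6:124415018-124415317 (minus) and Agps at chr2:75831927-75832226 (plus). All are written on the strand of the gene.
Acox3: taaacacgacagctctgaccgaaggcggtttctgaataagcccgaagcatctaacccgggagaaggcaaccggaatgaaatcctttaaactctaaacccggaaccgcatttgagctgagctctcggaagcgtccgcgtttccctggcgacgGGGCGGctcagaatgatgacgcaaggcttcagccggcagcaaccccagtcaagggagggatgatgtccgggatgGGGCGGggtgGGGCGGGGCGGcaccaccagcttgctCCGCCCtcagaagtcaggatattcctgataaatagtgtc
Ech1: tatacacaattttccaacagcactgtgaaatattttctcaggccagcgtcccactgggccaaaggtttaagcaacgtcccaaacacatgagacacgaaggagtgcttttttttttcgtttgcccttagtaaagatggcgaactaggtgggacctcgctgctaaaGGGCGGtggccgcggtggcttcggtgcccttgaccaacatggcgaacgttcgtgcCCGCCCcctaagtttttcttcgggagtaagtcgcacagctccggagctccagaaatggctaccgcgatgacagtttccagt
Pex14: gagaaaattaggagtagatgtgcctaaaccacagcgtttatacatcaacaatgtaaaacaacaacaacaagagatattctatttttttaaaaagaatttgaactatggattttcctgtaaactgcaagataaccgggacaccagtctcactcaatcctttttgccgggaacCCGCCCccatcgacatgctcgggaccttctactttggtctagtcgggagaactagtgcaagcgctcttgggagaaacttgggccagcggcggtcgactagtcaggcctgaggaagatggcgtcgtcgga
Pex3: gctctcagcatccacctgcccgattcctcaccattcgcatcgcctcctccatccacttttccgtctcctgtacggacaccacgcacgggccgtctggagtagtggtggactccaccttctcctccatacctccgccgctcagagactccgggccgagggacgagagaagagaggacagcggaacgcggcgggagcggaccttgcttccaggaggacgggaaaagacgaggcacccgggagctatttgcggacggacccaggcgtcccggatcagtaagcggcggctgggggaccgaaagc
Pex5: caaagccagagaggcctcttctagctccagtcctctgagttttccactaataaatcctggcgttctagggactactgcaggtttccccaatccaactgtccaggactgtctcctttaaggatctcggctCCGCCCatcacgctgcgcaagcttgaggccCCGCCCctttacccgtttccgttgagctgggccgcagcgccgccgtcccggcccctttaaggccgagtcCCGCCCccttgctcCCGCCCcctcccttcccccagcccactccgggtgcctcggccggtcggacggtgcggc
Agps: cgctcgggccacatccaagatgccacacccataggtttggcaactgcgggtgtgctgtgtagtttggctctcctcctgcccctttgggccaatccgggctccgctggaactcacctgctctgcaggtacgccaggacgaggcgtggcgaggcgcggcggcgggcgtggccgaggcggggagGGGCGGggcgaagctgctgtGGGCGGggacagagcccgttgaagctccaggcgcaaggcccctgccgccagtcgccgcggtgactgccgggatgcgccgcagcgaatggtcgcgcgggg

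The next sequences set a bound gene beside its unbound paralog. Acaa1a and Acaa1b encode near-identical peroxisomal thiolases, which carry out the last step of beta-oxidation, and lie 183935 bp apart. The Acaa1a window (chr9:119341044-119341343, plus strand) overlapped peaks of all 4 differentiated-cell antibodies and held 3 GC boxes, marked in capitals. The Acaa1b window (chr9:119157044-119157343, minus strand) overlapped no peak and held 0. The windows themselves are not copies: their best local alignment covered 22 bases, 18 of them identical. For the rest of the genes, the sources used here do not say how reads that match both copies were treated.
Acaa1a: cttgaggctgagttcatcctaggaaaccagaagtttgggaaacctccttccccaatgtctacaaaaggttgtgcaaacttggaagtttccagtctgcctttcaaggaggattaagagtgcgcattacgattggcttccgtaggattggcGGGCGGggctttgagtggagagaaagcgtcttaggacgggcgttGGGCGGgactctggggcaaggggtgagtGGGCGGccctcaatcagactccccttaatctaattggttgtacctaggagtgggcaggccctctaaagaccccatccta
Acaa1b: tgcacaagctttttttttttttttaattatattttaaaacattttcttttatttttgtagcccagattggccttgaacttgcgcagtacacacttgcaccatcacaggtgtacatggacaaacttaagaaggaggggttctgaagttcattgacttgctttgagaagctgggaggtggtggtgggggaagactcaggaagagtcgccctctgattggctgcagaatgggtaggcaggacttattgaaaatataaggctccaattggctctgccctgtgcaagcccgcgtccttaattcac

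Catalase, the enzyme that destroys hydrogen peroxide, had the tallest HA peak of the group, and its promoter (chr2:103485104-103485403, minus strand) was chosen for display after the values were seen. It was the only bound member whose window held the receptor repeat, AGGTCA repeated after 1 base, with up to 2 mismatches. Capitals mark that match here. The PPARb and HA peaks did not lie over the window: their centres were 390 and 411 bp downstream of the start, in the gene, while Qki-5 was centred 49 bp upstream of it. A match of letters is a description and not a binding site.
Cat: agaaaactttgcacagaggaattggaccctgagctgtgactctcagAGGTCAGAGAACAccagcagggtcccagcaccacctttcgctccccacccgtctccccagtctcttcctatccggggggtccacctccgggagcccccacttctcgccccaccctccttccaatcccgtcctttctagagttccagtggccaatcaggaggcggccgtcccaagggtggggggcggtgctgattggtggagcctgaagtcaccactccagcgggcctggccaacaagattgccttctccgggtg

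Across the 26 genes with a promoter entry, the letters of the receptor element were more frequent than elsewhere in 1 form and less frequent in the others. AGGTCA, searched on both strands, was present in 4 of 26 genes (Cat, Pex11g, Phyh and Scp2), or 15.4%, against 18.1% of 26999 other genes in the promoter table. The repeat with up to 2 mismatches was found in Acox2 and Cat (7.69% against 4.40%), and with up to 3 mismatches in 4 genes (15.4% against 27.3%). The CCAAT box, searched as ATTGG, was in 12 of 26 (46.2% against 41.1%). The core of the RNA element that Quaking binds, read as DNA, was in 1 gene as ACTAAC (Pex11a, 3.85% against 6.92%) and in 4 as ACTAAT (Pecr, Pex26, Pex5 and Phyh, 15.4% against 6.95%). The GC box GGGCGG stood apart from these, present in 20 of 26 genes (76.9%) against 38.2% of the others. Those others are all genes of the promoter table and not the protein-coding background alone. Of the 17466 background genes with an entry, 8591 held the GC box and 8875 did not, so the gap to that background was smaller. The GC box was in 19 of the 22 members that had a peak in any list and in 1 of the 4 that had none, which was Ehhadh. Among other protein-coding genes it was in 65.8% of those with a peak and 17.1% of those without, so the split by occupancy was seen in both sets. The absence of a match says only that these letters are not in this window.

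Most of the 31 genes were occupied in differentiated cells. PPARb had a peak at 26 genes (83.9%, 95% exact Clopper-Pearson interval 66.3 to 94.6%), against 57.2% of other protein-coding genes. HA also marked 26 genes (83.9%), against 60.6%. Qki-5 marked 25 genes (80.7%, 62.5 to 92.6%), against 61.1%. For these 3 antibodies the background lay below the interval of the members at this setting, but not at every other. Pol II marked 16 genes (51.6%, 33.1 to 69.9%), against 47.5%, a share near the background. In isolated cells Qki-5 marked 13 genes (41.9%, 24.6 to 60.9%), against 35.7%, and PPARb marked 4 genes (12.9%, 3.63 to 29.8%), against 7.56%. Both of those intervals held the background. With differentiated-cell peaks of at least 8-fold over input, PPARb marked 54.8% of members (36.0 to 72.7%), against 44.0%. HA then marked 71.0% (52.0 to 85.8%) against 54.4%, and Qki-5 64.5% (45.4 to 80.8%) against 51.7%. The intervals of these 3 antibodies thus held the background, as they did with peaks inside the gene span only. For PPARb the interval also held it when peaks counted for the nearest gene only. The order turned for some of the tallest or most enriched peaks: at 8-fold or more over input Pol II marked 22.6% of members and 33.9% of other genes, and among the 2000 tallest peaks Qki-5 marked 6.45% and 11.0%. Among those tallest peaks it did not turn for HA (22.6% against 9.12%) or PPARb (9.68% against 8.18%).

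**Figure D1:**
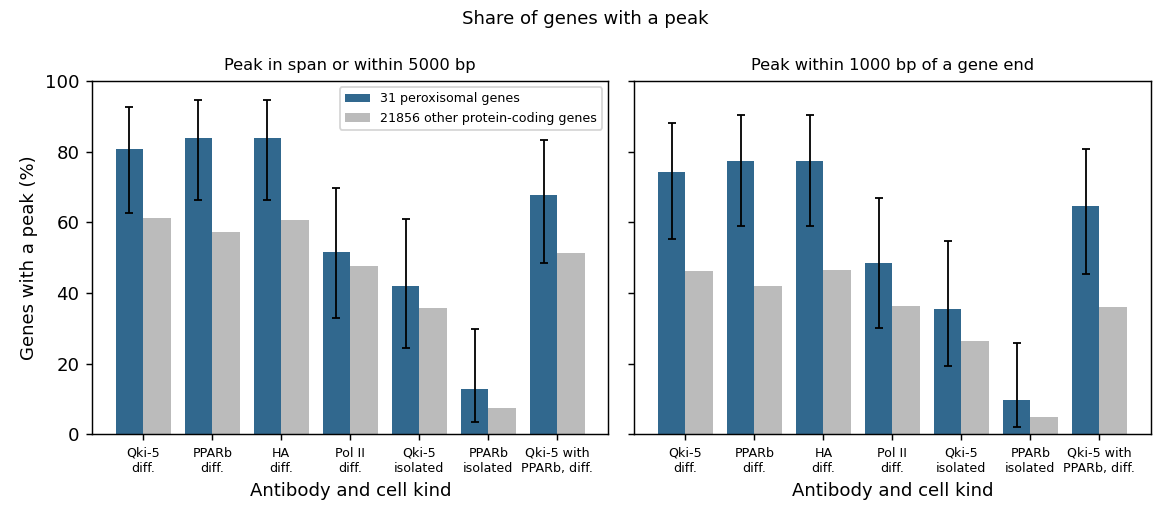
Share of genes with a peak (%), for each antibody and kind of cell (diff., differentiated), among the 31 members (blue, with 95% exact Clopper-Pearson intervals) and 21856 other protein-coding genes (grey). The left plot counts peaks in the gene span or within 5000 bp and the right plot those within 1000 bp of either gene end. The last pair of bars counts genes with overlapping Qki-5 and PPARb peaks. In both plots the blue bar stands above the grey one in every pair, by least for Pol II at 5000 bp.

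The occupancy lay at gene ends. Within 1000 bp of either end of the gene, PPARb and HA each had a peak at 24 members (77.4%), against 42% and 46.4% of other genes. Qki-5 had one at 23 (74.2%) against 46.3%, and Pol II at 15 (48.4%) against 36.3%. In isolated cells the counts were 11 for Qki-5 (35.5%) against 26.4%, and 3 for PPARb (9.68%) against 5.01%. Counted within 1000 bp of a RefSeq promoter start, for the 26 members with one, PPARb was at 21 against 45.1% of others, HA at 22 against 49.7%, Qki-5 at 21 against 49.4% and Pol II at 14 against 39.4%. In isolated cells Qki-5 was at 9 starts, against 28.6%, and PPARb at 3, against 5.65%. The median distance of a member peak from its nearest start was 119 bp for Qki-5, 155 bp for PPARb, 127 bp for HA and 144 bp for Pol II. Peaks lay on both sides of the start, with 15 PPARb peaks upstream and 14 downstream.

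**Figure D2:**
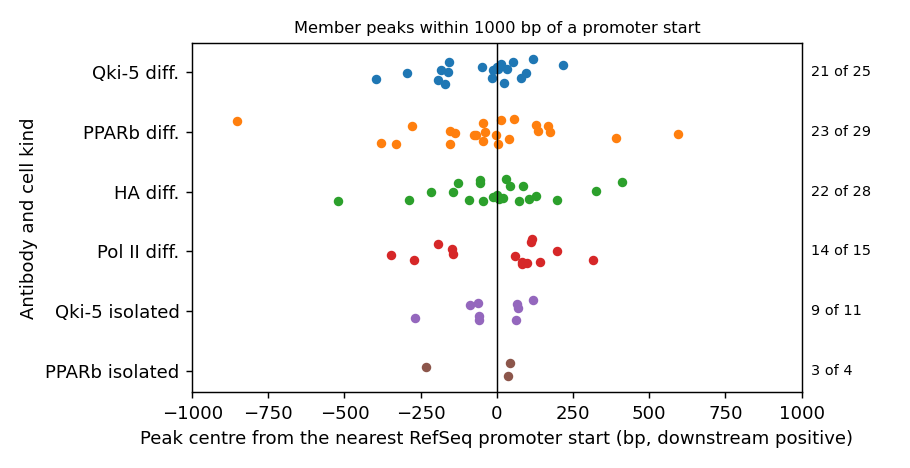
Position of member peak centres relative to the nearest RefSeq promoter start (bp, downstream positive), 1 point a peak, by antibody and kind of cell (diff., differentiated), with a small random vertical spread. Numbers at the right give the peaks within 1000 bp out of all peaks of the 26 members that have a start. The points of all lists gather around the start, and those of PPARb fall on both sides of it.

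Promoter composition moved with these shares. Among genes whose RefSeq window holds GGGCGG, PPARb marked 19 of 20 members (95%) and 79.4% of other genes. HA marked 19 of 20 members and 83.6% of others, Qki-5 18 of 20 (90%) and 83.5%, and Pol II 13 of 20 (65.0%) and 68.7%. The 6 members whose windows lack it had PPARb peaks in 3, against 36.5% of such genes. In isolated cells Qki-5 marked 9 of 20 (45%) and 52.0%, and PPARb 4 of 20 (20%) and 11.5%. In differentiated cells the gap between members and background was thus smaller among genes with the GC box than over all genes, with the opposite sign for Pol II. In isolated cells it turned sign for Qki-5 and was larger for PPARb. The part of promoter composition in the shares was not tested further. Gene length was a second difference: the median span was 25150 bp for members and 17150 bp for other genes. PPARb marked 8 of 10 members with spans of 5656 to 17150 bp, against 57.0% of other genes in that range, 9 of 12 with spans of 17151 to 44337 bp, against 65.6%, and 8 of 8 with longer spans, against 76.6%. For Qki-5 the counts in the same ranges were 8 of 10 against 61.2%, 8 of 12 against 69.7% and 8 of 8 against 81.3%. For Pol II they were 2 of 10 against 47.3%, 7 of 12 against 54.5% and 6 of 8 against 62.3%. The single shorter member, Pex10, was bound in all lists. The PPARb share thus stood above the background in each range, whereas Qki-5 was below it in the middle range and Pol II in the shortest of the 3.

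The 13 peroxins all had PPARb and HA peaks in differentiated cells, and 11 of them had a Qki-5 peak, set against 57.2, 60.6 and 61.1% of other protein-coding genes. Pex3, Pex16 and Pex19 insert proteins into the peroxisomal membrane. Pex16 had the tallest PPARb peak of all members, at a height of 19.1 (95% exact Poisson interval 13.9 to 25.8), with Qki-5 at 12.2, HA at 34.1, Pol II at 9.24 and isolated-cell Qki-5 at 11.0. That PPARb peak (chr2:92375312-92375512) was centred 173 bp downstream of a start. Pex3 had heights of 12.7 for Qki-5, 15.1 for PPARb, 18.2 for HA and 8.24 for isolated-cell Qki-5, and no Pol II peak. Pex19 was weaker, with PPARb at 8.46 and HA at 15.1 and no peak in the other lists. Its PPARb peak was 4.01-fold over input, just past the caller's limit of 4.

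**Figure D3:**
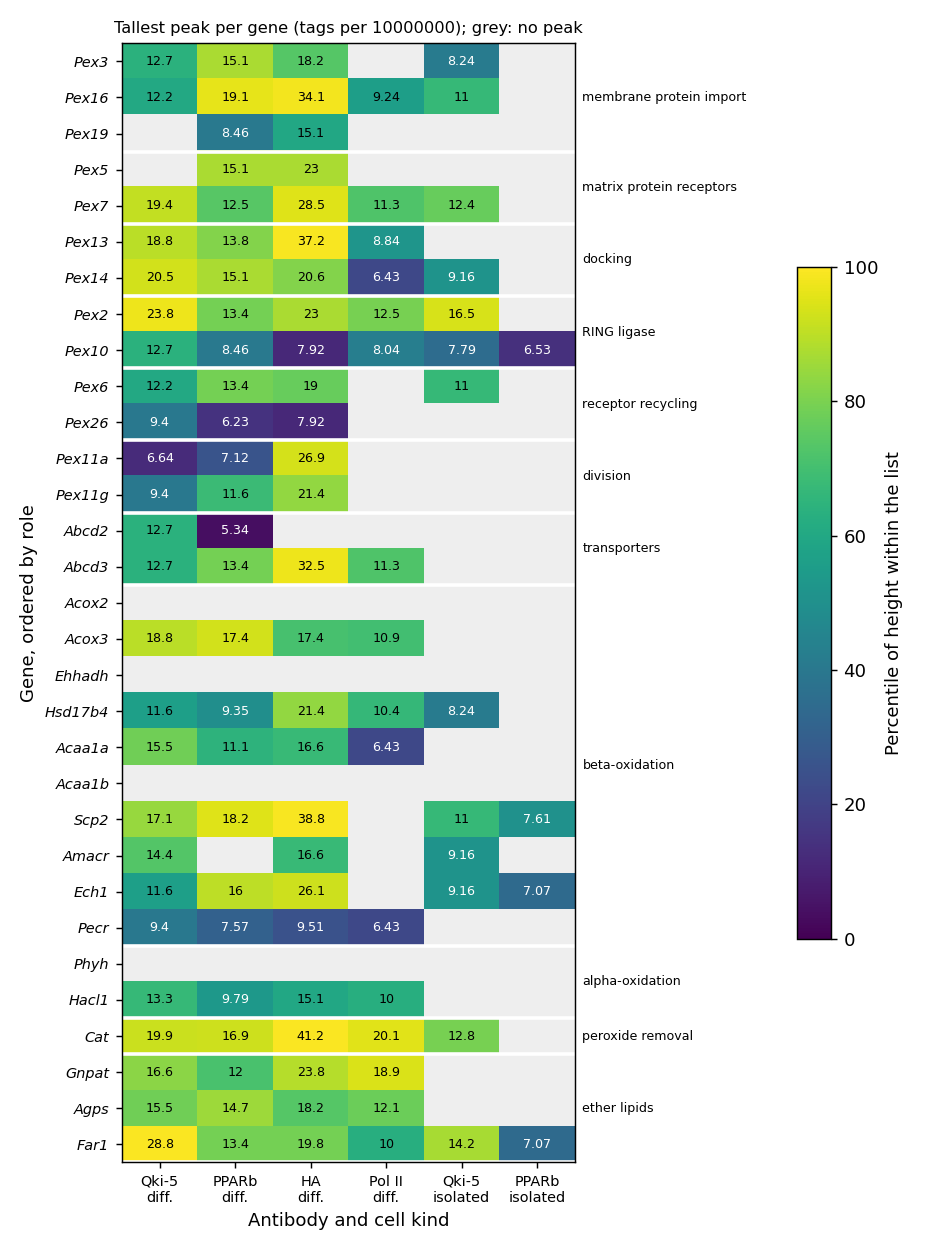
Height of the tallest peak (printed, tags per 10000000) of each of the 31 genes in each of the 6 lists (diff., differentiated), ordered by role. Colour gives the percentile of that peak within its own list and grey marks no peak. The 4 wholly grey rows are Acox2, Ehhadh, Acaa1b and Phyh, and Pex10 and Far1 are the rows filled in all 6 lists.

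Pex5 and Pex7 are the receptors that carry enzymes into the organelle, for the first and the second kind of targeting signal. At Pex5 only the receptor antibodies gave peaks, PPARb at 15.1 and HA at 23.0, centred 2 and 0 bp from a start. No Qki-5 or Pol II peak was called there. Pex7 in contrast was filled in 5 lists, with Qki-5 at 19.4, PPARb at 12.5, HA at 28.5, Pol II at 11.3 and isolated-cell Qki-5 at 12.4. Pex13 and Pex14 form the docking site for loaded receptors. Pex13 had Qki-5 at 18.8, PPARb at 13.8, HA at 37.2 and Pol II at 8.84. Its 3 factor peaks lay 381 to 521 bp upstream of the start, inside the neighbouring gene Pus10, and its Pol II peak 59 bp downstream. Pex14 had Qki-5 at 20.5, PPARb at 15.1, HA at 20.6, Pol II at 6.43 and isolated-cell Qki-5 at 9.16, all within 100 bp of the start. Further Qki-5 and PPARb peaks assigned to Pex14, at 12.7 and 7.57, were centred 50 and 53 bp from the end of Dffa and cannot be assigned to 1 gene.

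Pex2 and Pex10 are RING-finger subunits of the ubiquitin ligase that recycles the receptors, and they differed in height. Pex2 had Qki-5 at 23.8, PPARb at 13.4, HA at 23.0, Pol II at 12.5 and isolated-cell Qki-5 at 16.5, the tallest isolated-cell peak of any member. Its Qki-5 peak lay between a pair of PPARb peaks without touching either, the nearer centre 260 bp away. Pex10 was filled in all 6 lists, with Qki-5 at 12.7, above the median height of that list (11.1), and peaks below the median of their lists in the other 5: PPARb at 8.46, HA at 7.92, Pol II at 8.04, isolated-cell Qki-5 at 7.79 and isolated-cell PPARb at 6.53. Pex6, an ATPase that pulls receptors out of the membrane, had Qki-5 at 12.2, PPARb at 13.4, HA at 19.0 and isolated-cell Qki-5 at 11.0. Pex26, its membrane anchor, had Qki-5 at 9.40, PPARb at 6.23 and HA at 7.92. Neither Pex6 nor Pex26 had a Pol II peak. Pex2 and Pex10 both had one.

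Pex11a and Pex11g, which elongate and divide peroxisomes, had no Pol II and no isolated-cell peak. Pex11g had Qki-5 at 9.40, PPARb at 11.6 and HA at 21.4 near its start. At Pex11a the start held low peaks, Qki-5 at 6.64, PPARb at 6.23 and HA at 10.3. Its tallest HA peak, at 26.9 (18.7 to 37.6), lay elsewhere (chr7:79734763-79734963), 1094 bp past the far end of Pex11a and 1959 bp from the nearer end of Plin1, which encodes the lipid-droplet protein perilipin. A PPARb peak of 7.12 overlapped it, and no Qki-5 peak did. An element shared by Pex11a and perilipin that answers to PPAR receptors has been described in mouse. Whether the site seen here is that element was not tested.

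Abcd2 and Abcd3 are half-transporters that bring fatty acyl-CoA into the peroxisome. Abcd3 had Qki-5 at 12.7, PPARb at 13.4, HA at 32.5 and Pol II at 11.3, with the HA centre 259 bp from that of PPARb. Abcd2 had Qki-5 at 12.7 and a PPARb peak of 5.34, the lowest PPARb height among the members, and none in the other 4 lists. Both transporters were without a peak in isolated cells. Among the 10 genes of beta-oxidation 7 had Qki-5 peaks, 6 PPARb, 7 HA and 4 Pol II, set against 61.1, 57.2, 60.6 and 47.5% of other protein-coding genes. Acox3, an acyl-CoA oxidase, had Qki-5 at 18.8, PPARb at 17.4, HA at 17.4 and Pol II at 10.9, with factor centres 145 to 157 bp upstream of the start. Hsd17b4, the bifunctional protein for branched substrates, had Qki-5 at 11.6, PPARb at 9.35, HA at 21.4, Pol II at 10.4 and isolated-cell Qki-5 at 8.24. Acaa1a had Qki-5 at 15.5, PPARb at 11.1, HA at 16.6 and Pol II at 6.43. Its PPARb peak was 4.22-fold over input, near the caller's limit. Pecr, a reductase, was low throughout, with Qki-5 at 9.40, PPARb at 7.57, HA at 9.51 and Pol II at 6.43. That Pol II peak lay 3907 bp past the far end of the gene. Another, at 5.63, was centred 144 bp upstream of the start.

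Scp2 and Ech1 were bound in every list but Pol II. Scp2 encodes a peroxisomal thiolase and sterol carrier, and Ech1 an isomerase for unsaturated fatty acids. Scp2 had Qki-5 at 17.1, PPARb at 18.2, HA at 38.8 (28.7 to 51.3), isolated-cell Qki-5 at 11.0 and isolated-cell PPARb at 7.61. These 5 peaks met at a site inside the gene (PPARb, chr4:108071299-108071499), 47148 bp from the nearest RefSeq start, and only 0.879% of HA peaks were taller. The start itself held smaller Qki-5 and HA peaks of 11.1 and 17.4. No other member had its tallest Qki-5, PPARb and HA peaks all more than 5000 bp from a gene end. Ech1 had Qki-5 at 11.6, PPARb at 16, HA at 26.1, isolated-cell Qki-5 at 9.16 and isolated-cell PPARb at 7.07, all within 300 bp of the start. Amacr, a racemase for branched and bile acid side chains, had Qki-5 at 14.4, HA at 16.6 and isolated-cell Qki-5 at 9.16. It was the only member with an HA peak and no PPARb peak.

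Catalase had the tallest HA and Pol II peaks among the members. Its heights were 19.9 for Qki-5, 16.9 for PPARb, 41.2 (30.8 to 54.0) for HA, 20.1 for Pol II and 12.8 for isolated-cell Qki-5, and 0.649% of HA peaks were taller. The Qki-5 and PPARb centres were 439 bp apart and the peaks did not overlap. The 3 ether lipid genes, which start plasmalogen synthesis, were bound by all 4 differentiated-cell antibodies. So were 51.6% of all members and 44.7% of other protein-coding genes. Gnpat had Qki-5 at 16.6, PPARb at 12, HA at 23.8 and Pol II at 18.9. Agps had Qki-5 at 15.5, PPARb at 14.7, HA at 18.2 and Pol II at 12.1. Far1, the reductase that supplies the fatty alcohol, had Qki-5 at 28.8 (21.5 to 37.7), PPARb at 13.4, HA at 19.8, Pol II at 10, isolated-cell Qki-5 at 14.2 and isolated-cell PPARb at 7.07. That Qki-5 peak was the tallest of any member, with 0.510% of the list above it. Hacl1, a lyase of alpha-oxidation, had Qki-5 at 13.3, PPARb at 9.79, HA at 15.1 and Pol II at 10.

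Acox2, Ehhadh, Acaa1b and Phyh had no peak in any of the 6 lists. Acox2 oxidises branched and bile acid side chains, Ehhadh is the bifunctional enzyme known as a PPAR-responsive gene in liver, and Phyh starts the breakdown of phytanic acid. They made up 12.9% of the members, and 34.3% of other genes were without a peak in the same lists. Their spans, from 9051 to 33509 bp, lay within the range of the members, which ran from 5377 to 139309 bp. The GC content of their promoter windows ran from 43.7 to 60.7%, and that of bound members from 42.7 to 79.0%. The RefSeq windows of Acox2 and Phyh held matches to the receptor element, and neither gene had a PPARb or HA peak.

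Qki-5 and PPARb peaks overlapped at 21 of the 31 genes in differentiated cells (67.7%, 48.6 to 83.3%), against 51.2% of other genes, so the interval held the background. Within 1000 bp of a gene end it was 20 genes (64.5%, 45.4 to 80.8%) against 36.2%, so there the background lay below the interval. Of the 24 members with both kinds of peak, 87.5% had an overlapping pair, against 92.5% of other genes with both. The nearest centres were a median of 55.5 bp apart, from 2 to 484 bp. The exceptions were Pex2, Cat and Abcd2. A PPARb peak that overlapped both a Qki-5 and an HA peak was found at 18 members (58.1%) against 45.9% of other genes, and at 10 (32.3%) it met Pol II as well, against 31.5%. HA and PPARb peaks overlapped at 22 of 25 members with both (88.0%), against 91.1% of others. Overlap among genes with both peaks was thus no more frequent in the members than in the background.

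**Figure D4:**
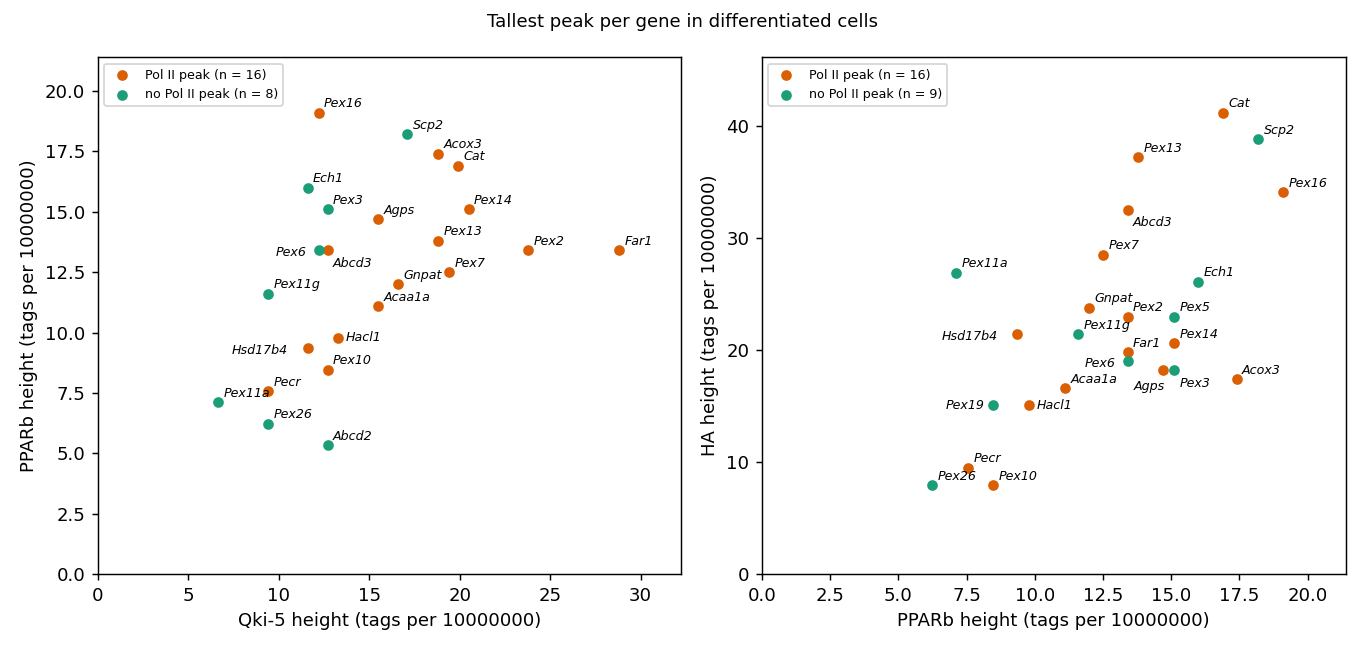
Heights of the tallest peak per gene in differentiated cells (tags per 10000000): PPARb against Qki-5 for the 24 members with both (left) and HA against PPARb for the 25 with both (right). Orange points are genes with a Pol II peak and green points genes without. Far1 and Pex2 lie far to the right for Qki-5 at a middling PPARb height, and Cat, Scp2 and Pex13 are the highest for HA.

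Heights for different antibodies went together to differing degrees. Spearman's rho across members was 0.46 between Qki-5 and PPARb (24 genes), 0.55 between PPARb and HA (25 genes) and 0.25 between Qki-5 and HA (24 genes), against 0.68, 0.65 and 0.54 across other genes. Between PPARb and Pol II it was 0.28 (16 genes), against 0.23. These are descriptions across genes of single libraries called against 1 shared input, and genes are not replicates. The median height of the tallest peak was 13.4 for members and 12 for other bound genes with PPARb, 21.0 and 18.2 with HA, and 13.3 and 15.5 with Qki-5. Thus 15 of 26 members were above the median of other genes with PPARb and 16 of 26 with HA, but 9 of 25 with Qki-5. Pol II heights were alike, at 10.2 and 10.4. Within their own lists, the tallest peak stood at or above the 90th percentile for 8 members with HA (30.8%), against 22.1% of other bound genes. It did so for 5 members with Qki-5 (20% against 25.4%), 4 with PPARb (15.4% against 19.0%) and 2 with Pol II (12.5% against 16.6%). Members usually had a single peak: 84.0% of bound members with Qki-5 and 84.6% with HA had 1, against 51.5% and 50.0% of other bound genes. With PPARb the gap was smaller, 65.4% against 55.2%, and 9 of 26 members had 2 peaks.

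Pol II divided the group. All 16 members with a Pol II peak also had Qki-5, PPARb and HA peaks, as did nearly all such genes elsewhere (98.3, 95.8 and 98.4% respectively). The 15 members without Pol II differed more from the background. PPARb marked 10 of them (66.7%, 38.4 to 88.2%), against 22.3% of other genes without Pol II. Qki-5 marked 9 (60%) against 27.5%, and HA marked 10 (66.7%) against 26.3%. All 3 factors without Pol II were found at 7 of the 31 genes (22.6%, 9.59 to 41.1%), against 9.23% of other genes. These were Pex3, Pex6, Pex26, Pex11a, Pex11g, Scp2 and Ech1. Of these, 5 are peroxins. A Pol II peak was found at 6 of 13 peroxins and at 10 of the 18 other members, set against 47.5% of other protein-coding genes. The difference between peroxins and other members was not tested. The Pol II library had the most tags but only 1.39% of them in peaks, so a missing Pol II peak means only that none was detectable.

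In isolated cells each of the 13 genes with a Qki-5 peak also had one in differentiated cells. The same held for 7537 of the 7793 other genes with an isolated-cell Qki-5 peak, so nearly all such genes shared this. The 13 members were Pex3, Pex16, Pex7, Pex14, Pex2, Pex10, Pex6, Hsd17b4, Scp2, Amacr, Ech1, Cat and Far1. Peaks of the 2 kinds of cell overlapped at 12 of them (92.3%, against 83.4% of other genes with an isolated-cell Qki-5 peak), the exception being Hsd17b4, where the centres were 244 bp apart. The 12 members bound by Qki-5 in differentiated cells alone included both transporters, Acox3, Acaa1a, Gnpat and Agps. Of 25 members bound in differentiated cells 52.0% were bound in isolated cells, against 56.4% of other genes. Heights in the 2 lists went together, with a Spearman's rho of 0.65 across 13 genes, against 0.52 across other genes. PPARb peaks of isolated cells were at Pex10, Scp2, Ech1 and Far1, with heights of 6.53, 7.61, 7.07 and 7.07, all below the median of 8.16 for other genes. At 3 of the 4 genes the peak overlapped both the differentiated-cell PPARb peak and the isolated-cell Qki-5 peak. At Far1 it overlapped neither, with centres 315 and 305 bp away. Among other genes with an isolated-cell PPARb peak, these overlaps were found at 79.5% and 80.9% respectively. The isolated-cell lists are much shorter, so genes missing from them are not shown to be unbound.

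Several peaks lie between neighbours. At 8 members, 25 of the 132 member peaks were centred within 1000 bp of the end of another protein-coding gene. The nearest pairs were Pecr with Tmem169 at 8 bp, Gnpat with 2810004N23Rik at 9 bp, Hacl1 with Btd at 35 bp and Pex14 with Dffa at 50 bp. Pex11a with Wdr93 at 88 bp, Pex3 with Adat2 at 201 bp, Acaa1a with Myd88 at 928 bp and Pex11g with Tex45 at 933 bp completed the set. Such peaks cannot be assigned to 1 gene. The other 19 bound members had no peak that close to a neighbour's end, and of the 26 members with PPARb 6 had such a peak. The same share over other genes is not given here, so these counts do not show whether shared ends are unusual for the members.

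A further 60 peroxisomal genes and 17 genes of mitochondrial beta-oxidation gave a frame for these values. Of the 60, 41 had a PPARb peak (68.3%), 44 Qki-5 (73.3%), 45 HA (75%) and 41 Pol II (68.3%). Median PPARb height was 13.4 in both peroxisomal sets, and 5 of the further genes were taller than the tallest member. Among these 5 were Mlycd at 25.4, Mvk at 22.3, Hsdl2 at 20 and Nudt19 at 19.6, and another is not reported here by name. Pipox, at 19.1, equalled the tallest member, Pex16. Mlycd breaks down malonyl-CoA, and Mvk acts in the mevalonate pathway. Of the 17 mitochondrial genes 16 had PPARb and 16 had Pol II, against 26 and 16 of the 31 members. HA height marked the contrast: the median was 21.0 in members, 19.0 in the further peroxisomal genes and 34.1 in the mitochondrial genes, 7 of which exceeded every member. Cpt1a, the gate of mitochondrial fatty acid entry, had an HA height of 122.8, and Etfb, an electron carrier subunit, 114.1. These differences between lists were not tested.

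**Figure D5:**
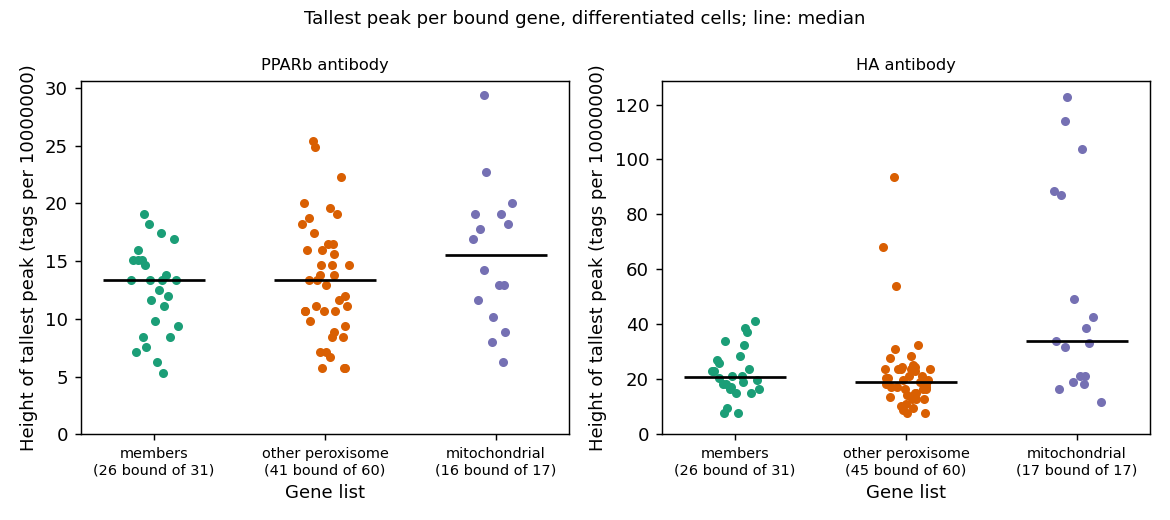
Height of the tallest PPARb (left) and HA (right) peak per bound gene in differentiated cells (tags per 10000000), for the 31 members, 60 other peroxisomal genes and 17 genes of mitochondrial beta-oxidation, 1 point a gene with a small random horizontal spread. Lines are medians. The HA medians are 21.0, 19.0 and 34.1, and 7 mitochondrial genes lie above the tallest member at 41.2.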

How the data were processed

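The report rests on the deposited peak lists of 6 antibody libraries. Input reads were seen only through values in those lists. Per the submitters' processing notes, the build was mm10 and the tools HOMER 4.10.1, SAMtools 1.8, Bowtie 1.2.2, Trim Galore 0.4.4 and bcl2fastq 2.19.1.403, with no role given. Per the file headers, each library was called alone against the input of its kind of cell. Peaks are 200 bp wide. They passed a false discovery rate of 0.001, 4-fold enrichment and p 0.0001 over input, and 4-fold enrichment over the 10000 bp around them, per the file headers. Peak height is a signal that the authors scaled to 10000000 tags per library, and fold over input is a ratio from their caller, both per the file headers. Header paths hold the word merge for the Qki-5 library of differentiated cells and the input of isolated cells, with no statement of what was pooled.

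Peaks were assigned to genes of a RefSeq table (GRCm38.p6), which holds neither strand nor exons, so exonic, intronic and UTR positions were not told apart. Starts and strands came from a RefSeq promoter table. Overlap meant at least 1 bp. Shares carry 95% exact Clopper-Pearson intervals and heights 95% exact Poisson intervals of the tag number. With 1 library per group no test was made. The assignment was tested on simulated data. Heights were described for every member, and sequences were taken for up to 6 members by PPARb height, with Acaa1a, Acaa1b and Cat added after their values were seen. The members and gene lists were chosen with earlier results of these data known. Alternatives were peaks inside the span, within 1000 bp of a gene end, of at least 8-fold over input or among the 2000 tallest, assignment to the nearest gene, and other overlap rules. Some genes of the comparison and marker lists are counted but not reported here by name.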

Additional observations from a re-analysis of the deposited data

How the results depend on the processing

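Shares of members bound stayed within the 95% interval of the reported value for all 7 shares when peaks were counted within 1000 bp of a gene end or for the nearest gene only. Inside the gene span alone the share was 54.8% for Qki-5, against 41.5% of other genes. It was 58.1% for both PPARb and HA, against 39.15% and 45.3%. For overlapping Qki-5 and PPARb peaks the share was 35.5%, against 30.3%. With peaks of at least 8-fold over input it was 54.8% for PPARb, 22.6% for Pol II, 12.9% for isolated-cell Qki-5, 0.0% for isolated-cell PPARb and 41.9% for the overlap. Among the 2000 tallest peaks of each list it was 6.45% for Qki-5, 9.68% for PPARb, 22.6% for HA, 6.45% for Pol II, 12.9% for isolated-cell Qki-5 and 0.0% for the overlap. The members' share was then below that of other genes for Pol II (33.9% at 8-fold, 11.3% among the tallest), isolated-cell Qki-5 (14.2% and 13.2%), isolated-cell PPARb (2.00% at 8-fold), Qki-5 (11.0% among the tallest) and the overlap (4.1% among the tallest). Fewer peaks enter under each of these limits. For the overlap, a minimum of 100 bp gave 61.3% (42.2 to 78.2%), against 45.2% of other genes. Centres within 1000 bp of each other gave 77.4% (58.9 to 90.4%), against 54.5%, so there the background lay below the interval. Leaving out a replicate was not run, and no paired analysis was possible because each group had 1 library. In the isolated-cell PPARb list the members' peaks held 12 to 14 tags, so their heights are imprecise.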

Other observations

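The HA and PPARb antibodies, which share the introduced receptor as a target, gave heights whose ratio differed between members. The ratio of HA to PPARb height had a median of 1.63 over 25 members and 1.54 over 12047 other genes with both. It was lowest at Pex10 (0.936) and Acox3 (1.00) and highest at Pex11a (3.78), Pex13 (2.70), Cat (2.44) and Abcd3 (2.43). The tallest HA and PPARb peaks of Abcd3 were centred 259 bp apart, those of Hacl1 204 bp and those of Far1 405 bp, without overlap.

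For PPARb and HA, fold over input placed members below other bound genes although height placed them above. The median fold of the tallest PPARb peak was 8.56 in members and 11.0 in other bound genes, and for HA it was 13.9 against 16.5. Members were lower in both height and fold for Qki-5 (median fold 12.3 against 13.3) and Pol II (7.38 against 10.7). Of the 26 members with PPARb, 15 (57.7%) had a tallest peak of at least 8-fold over input, against 67.5% of other bound genes.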
